A study of Mus musculus with 15 samples.

Results

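Podoplanin-positive mesenchymal cells of the lymph node that carry the surface protein BP3 were compared with those that lack it, in C57BL/6 mice aged 2 weeks. The comparison uses 6 of the 15 arrays of the series: 3 arrays of PDPN+BP3+ cells (BP3+ cells) and 3 arrays of PDPN+BP3- cells (BP3- cells). Both populations were sorted as PDGFRβ-positive and podoplanin-positive, PDGFRβ being a platelet-derived growth factor receptor of mesenchymal cells and PDPN the membrane glycoprotein podoplanin. BP3 is the product of Bst1, an enzyme of NAD metabolism on the cell surface. The labels name no mutation and no treatment of the mice. Inguinal, brachial and axillary nodes were pooled from 10 to 11 mice per experiment, digested with liberase and DNase I, and sorted, and RNA was amplified before hybridisation to Mouse Gene 1.1 ST arrays of Affymetrix. The 3 arrays of a population come from 3 individual experiments, so n = 3 per population, an array stands for a pool of mice, and differences between single mice or between the node sites cannot be seen. The other 9 arrays hold PDPN- cells of the same kind of node and PDPN+BP3- and PDPN- cells of the thymus, and they serve here for the estimate of spread and for a description of levels.

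Lymph node stroma is built by fibroblastic cells that hold the organ's matrix, guide lymphocytes with chemokines and keep them alive with cytokines. Reticular cells of this kind carry podoplanin, and in the developing and young node they depend on lymphotoxin beta receptor signals, which run through the non-canonical NF-kB pathway and drive adhesion molecules and chemokines. Fibroblasts of the capsule, the medulla and the adventitia of vessels also carry podoplanin, and they are known instead for elastic fibre and interstitial matrix proteins and for the sialomucin CD34.

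All values are log2 RMA signals (robust multi-array average, a summary of a gene's probes after normalisation between arrays). A difference is BP3+ minus BP3-, so 1 unit is a doubling of signal, and it is given ± its standard error from a limma model over all 15 arrays. Where a sentence gives 1 signed value ± an error for a gene, it is this difference and its standard error, while levels are given for each array or as mean ± SD. A gene passed at an adjusted p of 0.05 (Benjamini-Hochberg over 18718 genes), and n = 3 arrays per population throughout. Within BP3+ cells the arrays correlated at 0.994 to 0.995 across genes, within BP3- cells at 0.992 to 0.994, and between the populations at 0.955 to 0.965; genes are not independent replicates. The array medians lay between 3.84 and 3.885, and each array correlated best with those of its own population. In a sorted population, more cells of a type and more RNA per cell cannot be told apart.

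The genes of the sort antigens check the labels and are no finding. Bst1 stood at 8.94, 8.71 and 8.56 in BP3+ cells, against 3.80, 3.03 and 3.06 in BP3- cells (5.44 ± 0.18), with no overlap. Pdpn stood at 8.78, 8.89 and 8.71 in BP3+ cells, against 8.23, 7.90 and 8.34 in BP3- cells, so both populations had a high podoplanin signal and that of BP3+ cells was the higher (0.64 ± 0.13, adjusted p 0.00272). Pdgfrb, the receptor used to sort both, stood at 8.92, 9.02 and 9.08 in BP3+ cells, against 8.99, 9.03 and 8.79 in BP3- cells, and the groups overlapped (0.07 ± 0.11, adjusted p 0.815). Of the markers named for the comparison, Slc7a11 and Madcam1 were high with Bst1 in BP3+ cells, and the microfibril gene Mfap5 and the glypican Gpc3 were high in BP3- cells, each without overlap between the arrays.

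In all, 3038 of 18718 genes passed (16.2%), 1589 higher (8.49%) and 1449 lower (7.74%) in BP3+ cells. The median difference over all genes was 0.007, and differences ran between -7.48 for Mfap5 and 6.35 for Slc7a11. By at least 1 log2 unit 605 genes rose (3.23% of all) and 557 fell (2.98%). At the extremes falls outnumbered rises: 148 genes rose and 197 fell by at least 2 log2 units, 35 rose and 79 fell by at least 3, and 15 rose and 30 fell by at least 4. The 3 arrays of one population lay apart from the 3 of the other for 3013 of the 3038 genes that passed, and for 32.9% of all genes. For 497 of the 1589 higher genes the BP3- mean lay below 3.8, the median of the whole table, and for 505 of the 1449 lower genes the BP3+ mean did. Both means lay below 3.8 for 368 of the 3038 genes that passed, so these differences lie among low signals. No measure of background was used, so a difference may be understated where one side is this low.

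**Figure D1:**
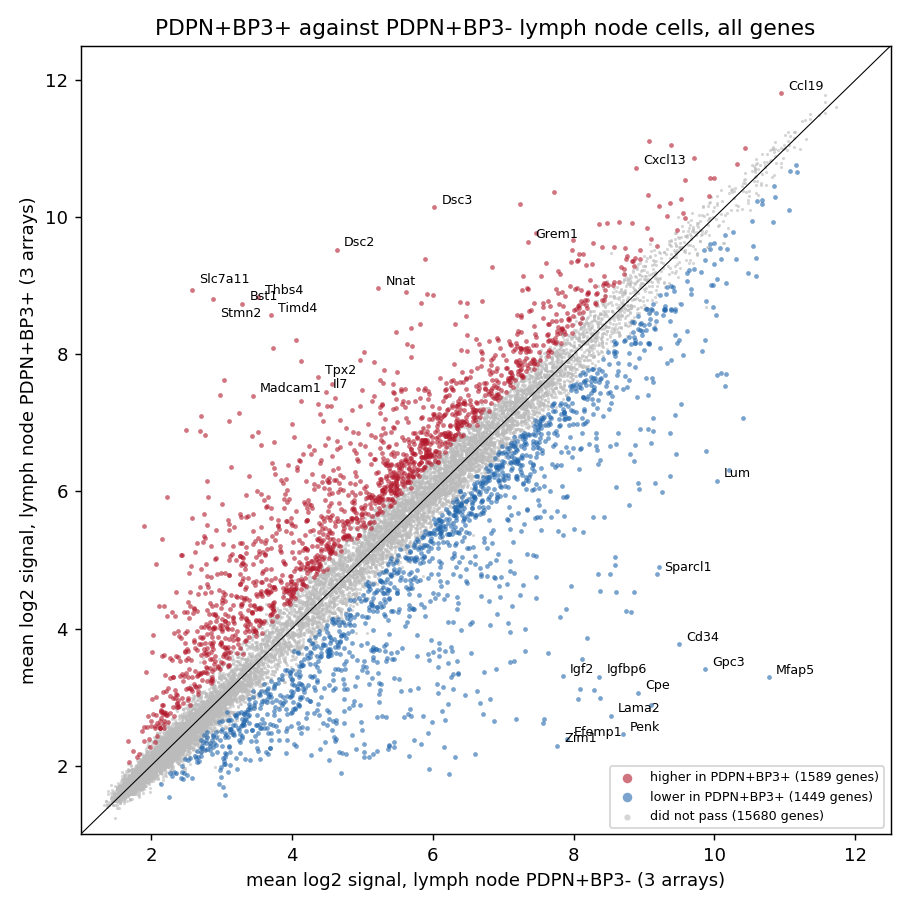
Mean log2 signal in PDPN+BP3+ cells (vertical axis, 3 arrays) against PDPN+BP3- cells (horizontal axis, 3 arrays), 1 point per gene, with the 1589 higher genes in red, the 1449 lower genes in blue, genes that did not pass in grey and the line of equal signal in black. Slc7a11, Stmn2 and Bst1 lie farthest above the line and Mfap5 and Gpc3 farthest below it.

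The 20 largest rises, picked among genes whose arrays did not overlap, included genes of amino acid transport, the cytoskeleton, adhesion and growth factor signalling. Slc7a11, the transport subunit of the exchanger that brings cystine into the cell for glutathione synthesis, stood at 9.02, 8.82 and 8.98 in BP3+ cells, against 2.31, 2.49 and 2.96 in BP3- cells (6.35 ± 0.20, adjusted p 1.99e-12). Stmn2, a stathmin that destabilises microtubules and is best known from neurons, stood at 9.19, 8.71 and 8.54 in BP3+ cells, against 2.58, 2.97 and 3.08 in BP3- cells (5.94 ± 0.16, adjusted p 4.59e-13). For both genes the 3 BP3+ arrays lay at least 5 units above every BP3- array. Thbs4, a matricellular thrombospondin, stood at 9.11, 8.59 and 8.80 in BP3+ cells, against 2.87, 4.33 and 3.36 in BP3- cells, and the spread among BP3- arrays was wider than for the 2 genes before (5.31 ± 0.26). Stc2, a secreted stanniocalcin, stood at 7.50, 7.35 and 7.36 in BP3+ cells, against 2.94, 2.93 and 3.05 in BP3- cells (4.43 ± 0.15). The tachykinin receptor gene Tacr1, whose ligand is substance P, stood at 7.05, 7.01 and 6.58 in BP3+ cells, against 2.67, 2.72 and 2.68 in BP3- cells (4.19 ± 0.14). Its BP3- arrays, like those of Stc2, lay below the table median, so BP3+ cells had a clear signal and BP3- cells a low one. Neurofascin, Nfasc, a cell adhesion protein of axons, gave 3.91 ± 0.16 and the protocadherin Pcdh15 3.89 ± 0.10. Pgf, a placental growth factor that binds the receptor FLT1, stood at 8.14, 7.87 and 8.26 in BP3+ cells, against 3.30, 4.03 and 3.86 in BP3- cells (4.36 ± 0.21). Clca3a1, of a family with near-identical copies whose probes may not separate them, gave 4.06 ± 0.19.

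The 20 largest falls, picked in the same way, included genes of secreted, matrix and membrane proteins. Mfap5, a glycoprotein of elastic microfibrils, stood at 3.31, 2.90 and 3.66 in BP3+ cells, against 10.84, 10.60 and 10.88 in BP3- cells (-7.48 ± 0.20, adjusted p 4.59e-13). Gpc3, a membrane-anchored heparan sulphate proteoglycan, stood at 3.24, 3.59 and 3.38 in BP3+ cells, against 9.89, 9.87 and 9.85 in BP3- cells (-6.47 ± 0.15, adjusted p 2.41e-13). In both cases the BP3- arrays were tightly grouped and no BP3+ array came near them. Penk, the precursor of the enkephalin opioid peptides, stood at 2.19, 2.32 and 2.87 in BP3+ cells, against 8.75, 8.57 and 8.78 in BP3- cells (-6.24 ± 0.20). Cpe, a carboxypeptidase that trims peptide hormone precursors, stood at 3.18, 2.72 and 3.29 in BP3+ cells, against 8.78, 8.88 and 9.10 in BP3- cells (-5.86 ± 0.14). Inmt, a methyltransferase of indole amines, stood at 3.65, 2.58 and 2.41 in BP3+ cells, against 9.44, 8.89 and 8.95 in BP3- cells, with BP3+ replicate 1 above the other arrays of its group and still more than 5 units below the BP3- arrays (-6.21 ± 0.29). The adhesion protein Flrt2 gave -4.58 ± 0.21, the desaturase Scd1 -4.56 ± 0.21, the LIM-domain cofactor Ldb2 -4.50 ± 0.14 and the flavin monooxygenase Fmo2 -4.93 ± 0.27. Fndc1 (-4.97 ± 0.19), Tmeff2 (-5.19 ± 0.21), Vit (-4.91 ± 0.16) and Itm2a (-5.38 ± 0.20), which encode secreted or membrane proteins, completed this set with the genes described in the lists.

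**Figure D2:**
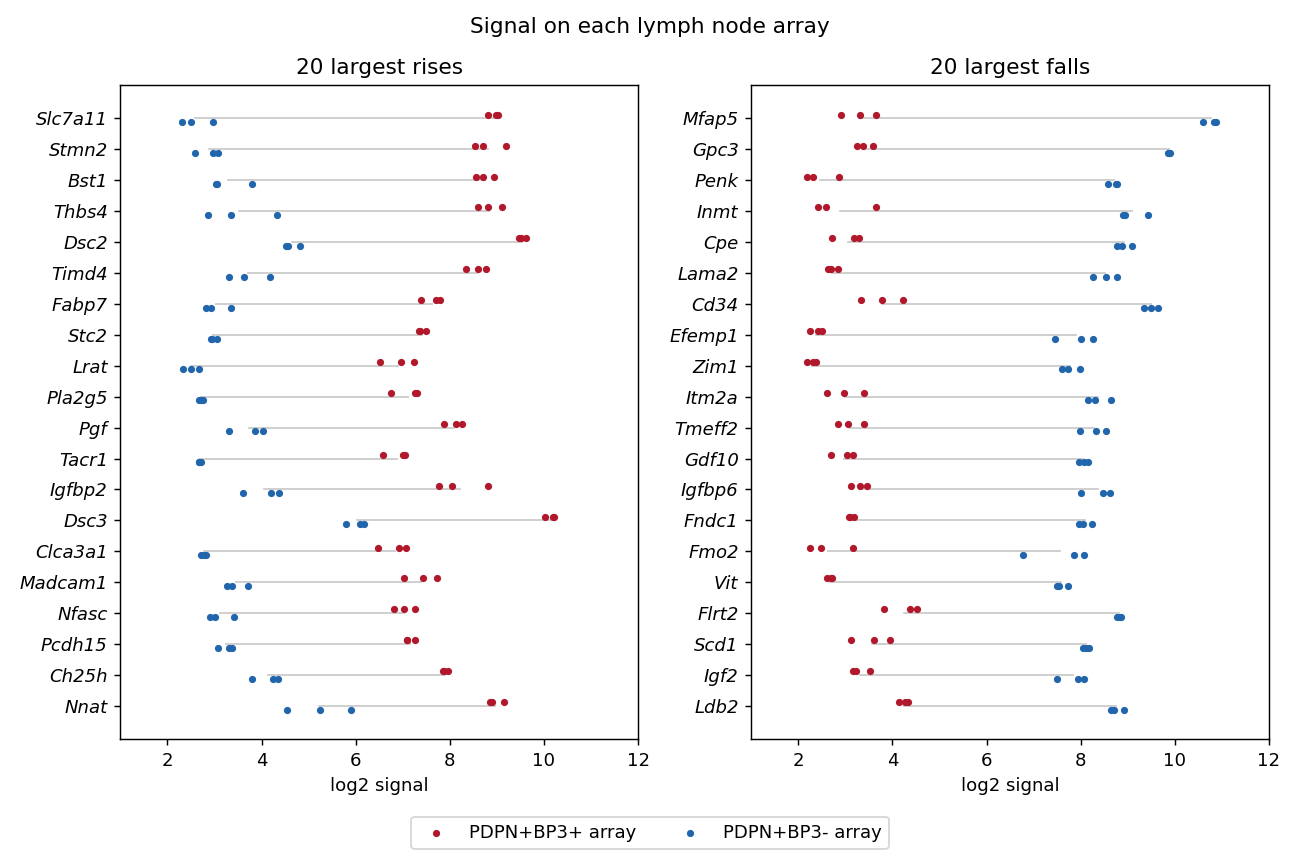
Log2 signal (horizontal axes) on each of the 3 PDPN+BP3+ arrays (red) and the 3 PDPN+BP3- arrays (blue) for the 20 genes with the largest rises (left) and the 20 with the largest falls (right), with a grey line between the group means. The genes were picked among those without overlap between the arrays, and Slc7a11 (6.35) and Mfap5 (-7.48) have the widest gaps.

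Gene lists are described by counts, beside the 8.49% of all genes that were higher and the 7.74% that were lower, and by the median difference, beside 0.007 over all genes. A gene can stand in several lists. Chemokines of lymphoid tissue and their scavenger receptors came first: 4 of the 8 measured were higher and 1 was lower (median 0.237). Cxcl13, which attracts B cells, stood at 10.47, 10.88 and 10.82 in BP3+ cells, against 8.85, 9.16 and 8.64 in BP3- cells (1.84 ± 0.23, adjusted p 1.98e-05), and all BP3+ arrays exceeded all BP3- arrays. Ccl19, which attracts T cells and dendritic cells and has near-identical copies in the mouse genome, stood at 11.73, 11.80 and 11.89 in BP3+ cells, against 10.97, 11.05 and 10.82 in BP3- cells (0.86 ± 0.12, adjusted p 4.52e-05). The transmembrane chemokines Cx3cl1 (1.71 ± 0.16) and Cxcl16 (0.91 ± 0.15) were higher too. Cxcl12, the ligand of CXCR4, stood at 10.23, 10.00 and 10.11 in BP3+ cells, against 10.53, 10.50 and 10.47 in BP3- cells and did not pass (-0.39 ± 0.14, adjusted p 0.089). The scavenger receptor Ackr2 was lower (-0.93 ± 0.18), with means of 2.13 in BP3+ cells and 3.06 in BP3- cells, both below the table median. Without BP3- replicate 2, 3 genes of the list were lower.

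Of 21 cytokine genes that act on lymphocytes and myeloid cells, 7 were higher and 2 lower (median 0.143). Il7, the survival factor of naive T cells, stood at 7.60, 7.46 and 7.31 in BP3+ cells, against 4.41, 4.63 and 4.41 in BP3- cells (2.97 ± 0.17, adjusted p 2.22e-09). Tnfsf8, the ligand of CD30, stood at 7.72, 7.58 and 7.40 in BP3+ cells, against 4.67, 4.78 and 4.27 in BP3- cells (2.99 ± 0.18, adjusted p 3.12e-09). Both genes had all BP3+ arrays more than 2 units above all BP3- arrays. Tnfsf13b, the B cell survival factor BAFF, stood at 7.71, 7.44 and 7.39 in BP3+ cells, against 6.22, 5.73 and 5.74 in BP3- cells (1.62 ± 0.16), Il15, a factor for natural killer and memory T cells, gave 1.38 ± 0.16, and the alarmin Il33 gave 1.31 ± 0.12. Tnfsf11, the cytokine RANKL that marks stromal organiser cells, stood at 6.90, 7.26 and 7.27 in BP3+ cells, against 6.26, 6.35 and 6.01 in BP3- cells and did not pass (0.94 ± 0.31, adjusted p 0.0539). In the other direction, Il6 averaged 5.80 ± 0.38 in BP3+ cells and 8.78 ± 0.31 in BP3- cells (SD; -2.98 ± 0.31, adjusted p 1.94e-06) and the costimulatory ligand Tnfsf9 gave -1.45 ± 0.21. The colony-stimulating factor Csf1 stood at 8.25 ± 0.17 in BP3+ cells and 8.32 ± 0.05 in BP3- cells (SD) and did not pass (-0.06 ± 0.11).

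Among 18 ligands of leukocyte adhesion and their modifying enzymes, 6 were higher and 4 lower (median 0.088), and 2 were lower without BP3+ replicate 1 or without BP3- replicate 1. Madcam1, the addressin that binds the integrin α4β7, stood at 7.03, 7.73 and 7.42 in BP3+ cells, against 3.37, 3.71 and 3.26 in BP3- cells (3.95 ± 0.25, adjusted p 7.09e-09). Every BP3+ array exceeded every BP3- array by more than 3 units. Vcam1, the ligand of integrin α4β1, averaged 9.53 ± 0.06 in BP3+ cells and 8.95 ± 0.18 in BP3- cells (SD; 0.58 ± 0.13, adjusted p 0.00591), a much smaller gap at a high signal in both populations. Icam1, a ligand of integrin LFA-1, stood at 7.88, 7.83 and 8.18 in BP3+ cells, against 7.45, 7.76 and 7.59 in BP3- cells and did not pass (0.36 ± 0.20, adjusted p 0.284). Cd200, which restrains myeloid cells through its receptor, was higher (1.42 ± 0.15), as were the sulphotransferase Chst2 (1.08 ± 0.17), the junctional molecule F11r (0.75 ± 0.18) and the hyaluronan receptor Cd44 (0.66 ± 0.12). The endothelial selectin gene Sele (-1.73 ± 0.25) and the junctional molecule Jam2 (-1.46 ± 0.26) were lower. Glycam1, a mucin that high endothelial venules secrete, stood at 8.48, 8.60 and 9.01 in BP3+ cells, against 10.07, 9.56 and 10.00 in BP3- cells and did not pass (-1.18 ± 0.91, adjusted p 0.515). Of 14 blood endothelium markers 8 were lower and 2 higher in BP3+ cells, the higher being Plvap (1.75 ± 0.16) and Sox18 (0.93 ± 0.18). Their part in the values of Madcam1, Sele and Jam2 was not tested.

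The lymphotoxin and NF-kB list held 11 higher genes and 1 lower gene among 21 (median 0.50), and that 1 lower call was absent without any single one of BP3+ replicates 1 and 2 and BP3- replicates 1, 2 and 3. Genes of the non-canonical branch and of negative feedback were among those that rose. Nfkb2, which encodes the p100 precursor of that branch, stood at 8.23, 8.23 and 8.42 in BP3+ cells, against 7.33, 7.34 and 6.91 in BP3- cells (1.10 ± 0.16, adjusted p 9.21e-05). Its partner Relb stood at 6.18, 6.25 and 6.43 in BP3+ cells, against 5.55, 5.71 and 5.10 in BP3- cells (0.83 ± 0.16, adjusted p 0.00126), and the kinase NIK, Map3k14, gave 0.79 ± 0.19. The 2 ubiquitin ligases that keep NIK low, Birc2 and Birc3, were higher as well, Birc2 at 8.09, 7.85 and 8.22 in BP3+ cells, against 6.66, 6.66 and 6.73 in BP3- cells (1.37 ± 0.16) and Birc3 by 0.79 ± 0.15. Tnfaip3, the deubiquitinase A20 that ends NF-kB signals, stood at 8.70, 8.56 and 8.68 in BP3+ cells, against 7.50, 7.44 and 7.23 in BP3- cells (1.26 ± 0.20, adjusted p 0.000175), and the inhibitor Nfkbie gave 0.97 ± 0.20. Among receptors, Tnfrsf1b rose most (1.70 ± 0.19), followed by Tnfrsf21 (1.11 ± 0.16), while the lymphotoxin beta receptor itself, Ltbr, stood at 7.27, 7.04 and 7.42 in BP3+ cells, against 7.48, 7.69 and 7.42 in BP3- cells and did not pass (-0.29 ± 0.13). The canonical subunit Rela (-0.01 ± 0.16) and the tumour necrosis factor receptor Tnfrsf1a (0.04 ± 0.12) did not pass either. The 1 lower gene of the list was the subunit gene Rel, with a difference of -0.63.

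The promoters of Madcam1, Nfkb2 and Tnfaip3 are printed because these genes of adhesion and of NF-kB rose together and each holds a kB motif, here GGG, any 2 bases and TTTCC, searched on both strands. The windows come from RefSeq on GRCm38.p6, run 5′ to 3′ on the strand of the gene over 250 bases before and 50 bases after its start, and show the motif in capitals. For Nfkb2 and Tnfaip3, which have 3 and 2 windows, the first one with a match is shown.
Madcam1 (chr10:79664309-79664608, + strand): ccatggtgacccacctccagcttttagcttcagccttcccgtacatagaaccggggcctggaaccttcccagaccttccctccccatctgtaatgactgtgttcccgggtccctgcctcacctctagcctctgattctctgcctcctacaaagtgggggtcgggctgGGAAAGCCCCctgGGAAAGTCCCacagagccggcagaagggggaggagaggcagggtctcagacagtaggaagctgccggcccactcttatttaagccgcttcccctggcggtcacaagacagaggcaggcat
Nfkb2 (chr19:46304487-46304786, + strand): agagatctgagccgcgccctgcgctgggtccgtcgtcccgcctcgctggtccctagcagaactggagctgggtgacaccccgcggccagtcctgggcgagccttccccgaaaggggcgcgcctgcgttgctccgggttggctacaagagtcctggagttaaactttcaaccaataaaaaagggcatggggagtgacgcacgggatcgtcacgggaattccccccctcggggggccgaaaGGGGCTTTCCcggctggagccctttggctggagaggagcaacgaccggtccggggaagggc
Tnfaip3 (chr10:19015361-19015660, - strand): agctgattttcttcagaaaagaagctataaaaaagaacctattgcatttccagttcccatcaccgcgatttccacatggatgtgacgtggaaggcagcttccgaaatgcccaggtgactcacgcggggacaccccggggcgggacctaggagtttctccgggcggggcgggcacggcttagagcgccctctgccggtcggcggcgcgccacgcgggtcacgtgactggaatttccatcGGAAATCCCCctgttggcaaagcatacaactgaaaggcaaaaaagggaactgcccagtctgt
In Madcam1 the matches begin 83 and 70 bases before the start, both on the other strand, and they do not overlap. In Nfkb2 the match begins 11 bases before the start on the same strand, and in Tnfaip3 12 bases before it on the other strand. Of 10 higher genes of the NF-kB list with a promoter in the table, 2 held the motif, against 1.89% of 27025 genes and 1.63% of 32851 promoters. Here and for the motifs below, list members that did not rise were not counted, so the shares cannot be tied to the rise. A match is a run of letters and shows no binding.

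Cystine and glutathione genes went both ways: of 24 measured, 6 were higher and 5 lower (median 0.047), and 3 were lower without BP3+ replicate 2, BP3+ replicate 3 or BP3- replicate 2. Both subunits of cystine uptake, Slc7a11 and Slc3a2, and 1 subunit of the enzyme of glutathione synthesis were among the higher genes. Slc3a2, the heavy chain that carries SLC7A11 to the membrane, stood at 8.39, 8.21 and 8.31 in BP3+ cells, against 7.31, 7.59 and 7.45 in BP3- cells (0.85 ± 0.15, adjusted p 0.000416). Gclm, the modifier subunit of the rate-limiting enzyme of glutathione synthesis, stood at 6.74, 6.91 and 6.34 in BP3+ cells, against 5.40, 5.66 and 5.06 in BP3- cells (1.29 ± 0.27, adjusted p 0.0022). The groups did not overlap for either gene. Its catalytic partner Gclc stood at 4.82, 5.05 and 4.76 in BP3+ cells, against 4.74, 4.54 and 4.49 in BP3- cells and did not pass (0.29 ± 0.13, adjusted p 0.193). The thioredoxin reductase Txnrd1 (0.91 ± 0.14) and the secreted glutathione peroxidase Gpx3 (1.15 ± 0.29) rose. Srxn1, which reactivates peroxiredoxins (-0.97 ± 0.17), the glutamyl transferase Ggt5 (-1.04 ± 0.21) and the transferase Gsta4 (-0.73 ± 0.17) fell. Nqo1 and Hmox1, targets of the oxidant-responsive factor NRF2, did not pass, with Nqo1 at 3.46 ± 0.10 in BP3+ cells and 3.35 ± 0.06 in BP3- cells (SD) and Hmox1 at 6.64 ± 0.06 in BP3+ cells and 7.20 ± 0.34 in BP3- cells.

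Genes of the amino acid response, in which ATF4 acts when amino acids are short, also held 7 higher and 5 lower members of 27 (median 0.08). Serine synthesis and one-carbon enzymes were on the higher side, with Psat1 at 5.47, 5.82 and 5.48 in BP3+ cells, against 4.17, 4.21 and 4.27 in BP3- cells (1.37 ± 0.16, adjusted p 6.38e-06), a difference of 0.89 ± 0.14 for Phgdh and one of 0.89 ± 0.14 for Shmt2. Psat1, Phgdh and Shmt2 catalyse successive parts of serine and glycine synthesis. The stress factor Atf3 stood at 9.97, 9.89 and 9.93 in BP3+ cells, against 10.90, 10.76 and 10.85 in BP3- cells (-0.91 ± 0.13, adjusted p 9.7e-05), and Nupr1 (-0.92 ± 0.14), the lipoprotein receptor Vldlr (-1.61 ± 0.15) and the amino acid transporter Slc38a2 (-0.62 ± 0.15) were lower too. Atf4 stood at 8.40 ± 0.10 in BP3+ cells and 8.68 ± 0.08 in BP3- cells (SD) and did not pass, nor did the marker genes Asns (-0.57 ± 0.23), Trib3 (-0.19 ± 0.17) and Chac1 (0.08 ± 0.16).

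The promoters of Slc7a11 and Gclm are printed because cystine uptake holds the largest rise of all and each holds the motif of its list in capitals: TGATGNAA, the CEBP-ATF response element, in Slc7a11, and TGACNNNGC, the antioxidant response element, in Gclm. Both motifs were searched on both strands, and the windows are those of RefSeq on GRCm38.p6 as above.
Slc7a11 (chr3:50443564-50443863, - strand): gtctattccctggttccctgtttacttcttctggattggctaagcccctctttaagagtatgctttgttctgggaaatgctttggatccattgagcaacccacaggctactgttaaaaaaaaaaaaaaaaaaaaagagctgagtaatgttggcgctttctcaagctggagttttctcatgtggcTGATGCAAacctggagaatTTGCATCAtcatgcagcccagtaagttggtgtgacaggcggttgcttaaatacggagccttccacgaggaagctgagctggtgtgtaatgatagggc
Gclm (chr3:122245307-122245606, + strand): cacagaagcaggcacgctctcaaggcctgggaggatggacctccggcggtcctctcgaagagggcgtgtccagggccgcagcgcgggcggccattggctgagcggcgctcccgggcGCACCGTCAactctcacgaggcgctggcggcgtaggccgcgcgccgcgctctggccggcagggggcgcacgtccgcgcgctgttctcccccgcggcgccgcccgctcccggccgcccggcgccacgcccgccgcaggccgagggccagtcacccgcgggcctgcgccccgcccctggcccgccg
In Slc7a11 the first match begins 66 bases before the start on the same strand and the other one 47 bases before it on the other strand, without overlap. In Gclm the match begins 134 bases before the start on the other strand. The CEBP-ATF element was in 1 of 6 higher amino acid response genes with a promoter, against 4.51% of all genes, and the antioxidant element was in 2 of 5 higher genes of the glutathione list, against 14.0%.

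Desmosomes are spot junctions that tie intermediate filaments of neighbouring cells together, and they are best known from epithelium and heart. Of 13 measured desmosome genes 3 were higher and 0 lower (median 0.157). Dsc2 stood at 9.47, 9.61 and 9.51 in BP3+ cells, against 4.57, 4.82 and 4.52 in BP3- cells (4.89 ± 0.15, adjusted p 1.36e-12), Dsc3 at 10.22, 10.19 and 10.03 in BP3+ cells, against 6.17, 6.09 and 5.80 in BP3- cells (4.13 ± 0.13, adjusted p 1.99e-12), and Dsg2 at 5.85, 5.23 and 5.75 in BP3+ cells, against 2.80, 2.35 and 2.58 in BP3- cells (3.03 ± 0.21, adjusted p 1.8e-08). All 3 are cadherins of the junction, and on none of them did the groups overlap. Jup, the plakoglobin that binds their tails, stood at 8.34, 8.02 and 8.09 in BP3+ cells, against 7.94, 7.73 and 7.66 in BP3- cells and did not pass (0.37 ± 0.25, adjusted p 0.411). The plaque protein Dsp stood at 2.09 ± 0.13 in BP3+ cells and 2.27 ± 0.15 in BP3- cells (SD), and Pkp1, Pkp2 and Pkp3 at 2.97, 1.96 and 3.01 in BP3+ cells and 2.81, 2.13 and 3.12 in BP3- cells, all below the table median. None of 11 epithelial markers passed, and Epcam averaged 2.45 ± 0.17 in BP3+ cells and 2.34 ± 0.12 in BP3- cells. Any part of epithelial cells in the desmosome values was not tested.

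Other junction and integrin genes went both ways. Of 22 classical cadherins and tight junction genes 3 were higher, Cdh3 (1.62 ± 0.31), Cldn15 (1.36 ± 0.14) and Cdh4 (1.01 ± 0.21), and 6 were lower (median -0.042), among them N-cadherin, Cdh2 (-0.74 ± 0.12), the tight junction scaffold Tjp1 (-0.87 ± 0.13) and Cldn10 (-1.91 ± 0.17). Of 19 integrin subunits 5 were higher and 5 lower (median -0.10), and 3 were higher without any 1 array other than BP3+ replicate 3. Itga6, a laminin receptor subunit, stood at 7.51, 7.51 and 7.34 in BP3+ cells, against 5.51, 5.46 and 5.35 in BP3- cells (2.01 ± 0.10, adjusted p 5.17e-10). The collagen receptor subunits Itga1 (0.95 ± 0.15) and Itga2 (0.94 ± 0.22) were higher as well. Itga8, whose heterodimer binds nephronectin, stood at 2.15, 2.36 and 2.22 in BP3+ cells, against 5.52, 5.18 and 5.40 in BP3- cells (-3.12 ± 0.20, adjusted p 6.93e-09). Itgb3 (-1.48 ± 0.15) was lower, while the shared subunit Itgb1 stood at 9.26 ± 0.14 in BP3+ cells and 9.36 ± 0.08 in BP3- cells (SD) and did not pass.

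Of 18 genes of apoptotic cell recognition 3 were higher and 7 lower (median -0.248), and 4 were lower without BP3+ replicate 2 or without BP3- replicate 2. Timd4, a receptor for phosphatidylserine that is known from macrophages, stood at 8.35, 8.76 and 8.60 in BP3+ cells, against 4.18, 3.63 and 3.30 in BP3- cells (4.87 ± 0.18, adjusted p 1.19e-11). Mfge8, a secreted bridge between phosphatidylserine and integrins that follicular dendritic cells make, stood at 11.12, 11.12 and 11.12 in BP3+ cells, against 9.08, 9.03 and 9.10 in BP3- cells (2.05 ± 0.10, adjusted p 3.59e-10). Gas6, the ligand of the TAM kinases, gave 1.05 ± 0.22, while the TAM receptor Axl (-1.06 ± 0.10) and the ligand Pros1 (-0.93 ± 0.14) were lower. The macrophage markers Adgre1 and Csf1r averaged 1.96 and 2.60 in BP3+ cells and 1.85 and 2.51 in BP3- cells and did not pass, both below the table median on both sides. Of the 13 myeloid markers 5 had a mean above the table median in at least 1 of the populations, and Cd14 was higher (1.90 ± 0.25) while S100a8 (-4.19 ± 0.60) and S100a9 (-3.45 ± 0.35) were lower. The part of myeloid cells in the value of Timd4 was not tested.

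Of 22 genes of retinoid metabolism 3 were higher and 6 lower (median -0.095). Lrat, which esterifies retinol for storage, stood at 6.51, 7.24 and 6.96 in BP3+ cells, against 2.49, 2.67 and 2.33 in BP3- cells (4.41 ± 0.19, adjusted p 7.86e-11). Cyp26b1, which degrades retinoic acid, stood at 6.90, 6.91 and 6.79 in BP3+ cells, against 3.74, 3.46 and 3.35 in BP3- cells (3.35 ± 0.13, adjusted p 1.9e-11). Rdh10, which oxidises retinol to retinal, gave 1.24 ± 0.13. The retinal dehydrogenases Aldh1a1 (-1.89 ± 0.24) and Aldh1a2 (-0.97 ± 0.18), the binding protein Crabp1 (-2.34 ± 0.26) and the retinoic acid receptor Rarb (-1.47 ± 0.16) were lower. For Aldh1a2 the BP3- mean was 3.04, below the table median, so this difference lies among low signals.

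Among 20 phospholipase and prostanoid genes 6 were higher and 2 lower (median 0.055), and 0 were lower without BP3+ replicate 3 or without BP3- replicate 1, and 1 without BP3+ replicate 1, BP3+ replicate 2 or BP3- replicate 3. Pla2g5, a secreted phospholipase, stood at 7.26, 6.76 and 7.30 in BP3+ cells, against 2.75, 2.68 and 2.71 in BP3- cells (4.39 ± 0.14, adjusted p 1.99e-12). Cytosolic Pla2g4a, which frees arachidonic acid, gave 1.37 ± 0.18, the cyclooxygenase Ptgs2 1.12 ± 0.21, and Hpgd, which inactivates prostaglandins, 1.27 ± 0.24. Pla2g7, which hydrolyses platelet-activating factor, gave 1.81 ± 0.16. Of 23 genes of lipid handling 5 were higher and 8 lower (median -0.22). Ch25h makes the precursor of the oxysterols that steer B cells, and it stood at 7.97, 7.85 and 7.88 in BP3+ cells, against 4.35, 3.79 and 4.24 in BP3- cells (3.77 ± 0.25, adjusted p 1.04e-08). Fabp7, a fatty acid carrier known from glia, stood at 7.80, 7.70 and 7.38 in BP3+ cells, against 2.92, 3.35 and 2.82 in BP3- cells (4.60 ± 0.15, adjusted p 2.1e-12). Of 5 glia markers none was higher and 1 was lower, and the part of glia in the value of Fabp7 was not tested. The apolipoprotein Apod stood at 6.64, 6.13 and 5.59 in BP3+ cells, against 9.27, 8.70 and 8.79 in BP3- cells (-2.80 ± 0.22, adjusted p 8.27e-08), and the preadipocyte factor Ebf2 gave -3.51 ± 0.14, with -0.88 ± 0.12 for its relative Ebf1 and -0.81 ± 0.16 for Ebf3. Lepr, the leptin receptor, gave -0.75 ± 0.18 and the lipase Lpl -0.97 ± 0.15, while the adipocyte regulators Pparg (-0.43 ± 0.15) and Adipoq (-0.01 ± 0.12) did not pass.

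Marginal reticular cells and follicular dendritic cells are the stroma of the outer cortex and of B cell follicles. Of 17 genes known from them 6 were higher and 4 lower (median 0.18), and 5 were higher without any single array. Besides Madcam1, Cxcl13, Mfge8 and Vcam1, clusterin, Clu, stood at 11.13, 11.00 and 11.02 in BP3+ cells, against 9.64, 9.45 and 9.05 in BP3- cells (1.67 ± 0.22, adjusted p 3.44e-05). The receptors that define mature follicular dendritic cells stayed low: Cr2 stood at 2.36, 2.67 and 2.26 in BP3+ cells, against 2.06, 2.07 and 2.28 in BP3- cells, Fcer2a averaged 2.31 ± 0.15 in BP3+ cells and 2.29 ± 0.14 in BP3- cells (SD) and Fcgr2b 2.47 ± 0.31 in BP3+ cells and 2.30 ± 0.05 in BP3- cells, and none of the 3 passed. Tmem119 stood at 4.51, 4.52 and 4.56 in BP3+ cells, against 8.56, 8.72 and 8.52 in BP3- cells (-4.07 ± 0.16, adjusted p 2.5e-11), and Fgl2 (-2.88 ± 0.24) and Lbp (-2.71 ± 0.23) were lower too.

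Cell cycle genes were the list with the highest median, 1.63: 24 of 30 were higher and 2 lower. The higher count was 24 also without any single array, and the lower count was 1 without BP3+ replicate 1 or 3 or without BP3- replicate 1 or 2. Tpx2, a spindle assembly factor, stood at 7.63, 7.67 and 7.70 in BP3+ cells, against 4.08, 4.55 and 4.47 in BP3- cells (3.30 ± 0.14, adjusted p 6.96e-11). Top2a, the topoisomerase that separates chromosomes, stood at 7.47, 7.81 and 7.60 in BP3+ cells, against 4.96, 5.68 and 5.13 in BP3- cells (2.37 ± 0.19, adjusted p 1.25e-07). Mki67, the proliferation antigen, stood at 6.91, 7.40 and 6.80 in BP3+ cells, against 4.49, 5.12 and 4.46 in BP3- cells (2.35 ± 0.22, adjusted p 9.12e-07). In each the lowest BP3+ array lay above the highest BP3- array. Mitotic kinases and cyclins rose too, by 2.49 ± 0.20 for Bub1, 2.27 ± 0.25 for Aurkb, 2.05 ± 0.13 for Plk1, 2.28 ± 0.22 for Ccnb2 and 2.26 ± 0.22 for Ccna2. The replicative helicase subunits, which are loaded in G1, rose as well, with differences between 0.86 for Mcm7 and 1.62 for Mcm5 over the 6 genes. D-type cyclins differed in direction, with differences of 1.68 ± 0.17 for Ccnd1, 0.99 ± 0.17 for Ccnd2 and -0.60 ± 0.14 for Ccnd3. Pcna stood at 9.03, 9.15 and 9.19 in BP3+ cells, against 8.57, 8.77 and 8.91 in BP3- cells and did not pass (0.37 ± 0.16). B cell markers were at 2.35 to 2.44 on BP3+ arrays and 2.38 to 2.46 on BP3- arrays as a mean over 7 genes, and none of them passed, nor did the leukocyte gene Ptprc (3.04 ± 0.12 in BP3+ cells and 3.02 ± 0.14 in BP3- cells, SD). Any part of leukocytes in the cell cycle values was not tested.

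The promoters of Cdk1 and Cdc20 are printed because mitotic genes rose together and both hold, in capitals, the cell cycle homology region TTTGAA and the CCAAT box CCAAT, searched on both strands in the RefSeq windows on GRCm38.p6. Cdk1, the mitotic kinase, stood at 7.26, 7.45 and 7.12 in BP3+ cells, against 5.28, 5.97 and 5.42 in BP3- cells (1.72 ± 0.28, adjusted p 0.000228). Cdc20, an activator of the anaphase-promoting complex, stood at 6.03, 6.22 and 5.88 in BP3+ cells, against 4.39, 4.43 and 4.14 in BP3- cells (1.72 ± 0.17, adjusted p 1.12e-06).
Cdk1 (chr10:69352863-69353162, - strand): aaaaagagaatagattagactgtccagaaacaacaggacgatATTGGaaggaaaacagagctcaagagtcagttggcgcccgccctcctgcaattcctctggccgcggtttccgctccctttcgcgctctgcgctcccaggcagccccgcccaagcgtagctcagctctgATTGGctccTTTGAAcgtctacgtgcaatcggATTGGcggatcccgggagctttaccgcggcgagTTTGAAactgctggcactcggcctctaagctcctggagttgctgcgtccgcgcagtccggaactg
Cdc20 (chr4:118437294-118437593, - strand): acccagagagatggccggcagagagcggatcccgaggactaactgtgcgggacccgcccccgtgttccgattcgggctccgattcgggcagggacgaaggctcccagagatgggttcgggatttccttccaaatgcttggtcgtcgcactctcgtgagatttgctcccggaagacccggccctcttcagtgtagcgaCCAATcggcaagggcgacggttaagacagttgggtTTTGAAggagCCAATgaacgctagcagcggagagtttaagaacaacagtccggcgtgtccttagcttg
In Cdk1 the region TTTGAA begins 71 and 15 bases before the start on the same strand, and the CCAAT box, on the other strand, 208, 80 and 48 bases before it. In Cdc20 TTTGAA begins 18 bases and CCAAT 53 and 8 bases before the start, all on the same strand. No match overlaps another. TTTGAA was in 10 of 18 higher cell cycle genes with a promoter, against 20.2% of all genes, and CCAAT in 17 of 18, against 41.1%. Cell cycle genes that did not rise were not counted, so these shares may belong to the list and cannot be tied to the rise.

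Genes of adventitial fibroblasts were the list with the lowest median. Of 19 measured, 18 were lower and 0 higher in BP3+ cells (median -2.463), and Col14a1 was the 1 that did not pass (0.11 ± 0.15). Cd34, the sialomucin of adventitial fibroblasts and endothelium, stood at 4.22, 3.33 and 3.77 in BP3+ cells, against 9.50, 9.35 and 9.64 in BP3- cells (-5.72 ± 0.19, adjusted p 2.48e-12). Igfbp6, a binding protein with preference for IGF2, averaged 3.30 ± 0.16 in BP3+ cells and 8.37 ± 0.33 in BP3- cells (SD; -5.07 ± 0.16, adjusted p 1.99e-12). Pi16, a secreted protein that marks adventitial fibroblasts across organs, stood at 2.12, 2.21 and 2.18 in BP3+ cells, against 6.14, 4.50 and 4.82 in BP3- cells (-2.98 ± 0.28, adjusted p 7.77e-07). No BP3+ array reached a BP3- array in any of these. The peptidase Dpp4 gave -3.33 ± 0.23, the collagen processing protein Pcolce2 -4.00 ± 0.32, the hyaluronan synthase Has1 -3.44 ± 0.16, dermatopontin, Dpt, -2.45 ± 0.27 and the endosialin gene Cd248 -2.52 ± 0.15. Blood endothelium markers also fell, 8 of 14 with 2 higher (median -0.643), and their mean over the list was 3.73 to 3.92 on BP3+ arrays and 4.12 to 4.50 on BP3- arrays. Their part in the value of Cd34 was not tested.

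Of 21 elastic fibre and microfibril genes 14 were lower and 1 higher (median -0.967). Efemp1, a fibulin, stood at 2.41, 2.25 and 2.50 in BP3+ cells, against 8.26, 7.45 and 8.01 in BP3- cells (-5.52 ± 0.22, adjusted p 2.52e-11). Its relatives Fbln1 (-2.65 ± 0.15), Fbln5 (-2.04 ± 0.19), Fbln7 (-1.85 ± 0.16) and Fbln2 (-0.98 ± 0.16) fell with it, as did Emilin2 (-3.76 ± 0.16). The cross-linking enzymes Lox (-2.41 ± 0.19), Loxl2 (-1.91 ± 0.11) and Loxl1 (-0.67 ± 0.16) were lower. Elastin itself, Eln, stood at 7.59, 7.67 and 7.71 in BP3+ cells, against 7.61, 7.11 and 7.23 in BP3- cells and did not pass (0.34 ± 0.14, adjusted p 0.114). Ltbp2, a latent TGF-beta binding protein that associates with fibrillin, stood at 6.36, 6.09 and 6.31 in BP3+ cells, against 3.91, 3.71 and 3.67 in BP3- cells and was the 1 gene higher in BP3+ cells (2.49 ± 0.17, adjusted p 2.15e-08). The higher count was 2 without BP3- replicate 1 or without BP3- replicate 2, and the lower count was 12 to 14 when 1 array was left out.

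Of 39 collagen chains 14 were lower and 0 higher (median -0.247), with 1 higher without BP3+ replicate 2. The lower count was 11 to 15 when 1 array was left out. Fibril-forming chains were among the lower, with Col3a1 at 9.14, 8.92 and 9.38 in BP3+ cells, against 10.60, 10.57 and 10.58 in BP3- cells (-1.44 ± 0.13, adjusted p 5.19e-07), a difference of -1.13 ± 0.13 for Col1a1 and one of -0.92 ± 0.11 for Col1a2. Larger falls were those of Col15a1, a collagen of basement membrane zones, at 3.30, 3.20 and 3.62 in BP3+ cells, against 6.95, 6.73 and 6.51 in BP3- cells (-3.36 ± 0.16, adjusted p 2.07e-10), and of Col6a5 (-2.65 ± 0.19) and Col6a6 (-1.86 ± 0.19). Type VI chains Col6a2 (-0.07 ± 0.15) and Col6a3 (-0.34 ± 0.13) did not pass. Among 16 laminin and basement membrane genes 7 were lower and 2 higher (median -0.308). Lama2, the laminin α2 chain of muscle and mesenchyme, stood at 2.69, 2.85 and 2.64 in BP3+ cells, against 8.78, 8.26 and 8.54 in BP3- cells (-5.80 ± 0.16, adjusted p 4.59e-13), and Lama1 was higher (1.15 ± 0.10), with a BP3+ mean of 3.67, below the table median. Smoc2 (-2.57 ± 0.20), Lamb2 (-1.11 ± 0.15) and nidogen, Nid1 (-0.94 ± 0.10), were lower, while Lama4 (-0.07 ± 0.11) and Lamc1 (-0.28 ± 0.12) did not pass.

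Proteoglycans split between the populations, with 12 of 24 lower and 4 higher (median -0.352). The lower count was 8 without BP3+ replicate 2 or without BP3- replicate 1. The small leucine-rich members Lum at 5.62, 6.42 and 6.43 in BP3+ cells, against 9.88, 10.11 and 10.11 in BP3- cells (-3.88 ± 0.27, adjusted p 1.63e-08) and Ogn (-2.91 ± 0.16) were lower, as was versican, Vcan (-1.76 ± 0.20). Fibromodulin, Fmod, of the same leucine-rich family, stood at 10.16, 9.80 and 9.81 in BP3+ cells, against 8.82, 8.52 and 8.07 in BP3- cells and was higher (1.45 ± 0.18, adjusted p 1.61e-05). Gpc1 (1.66 ± 0.18) and Sdc3 (1.89 ± 0.17), both membrane heparan sulphate proteoglycans, were higher, against Gpc3 and Gpc4 (-0.97 ± 0.15) among the lower. Biglycan, Bgn, stood at 10.79 ± 0.07 in BP3+ cells and 10.87 ± 0.04 in BP3- cells (SD) and did not pass. Matricellular genes held 7 higher and 7 lower members of 21 (median -0.153), with 5 or 6 higher and 7 lower without any single array. Tnn, a tenascin, gave 2.91 ± 0.17 and Tnc 1.32 ± 0.14, while tenascin X, Tnxb, gave -1.85 ± 0.19. Thrombospondins split as well, Thbs4 higher and Thbs3 (-2.05 ± 0.16) and Thbs2 (-0.63 ± 0.13) lower. Sparcl1 stood at 4.78, 4.67 and 4.92 in BP3+ cells, against 9.52, 8.87 and 9.16 in BP3- cells (-4.39 ± 0.14, adjusted p 2.48e-12).

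Of 26 matrix proteases and inhibitors 15 were lower and 2 higher (median -0.583), with 1 higher without any single BP3+ array or without BP3- replicate 3. The lower count was 12 to 14 when 1 array was left out. Stromelysin, Mmp3, stood at 3.06, 2.17 and 2.82 in BP3+ cells, against 7.88, 6.40 and 7.26 in BP3- cells (-4.50 ± 0.28, adjusted p 6.37e-09). The plasminogen activators Plat (-3.15 ± 0.15) and Plau (-2.25 ± 0.20) fell, and so did the secreted metalloproteases Adamts12 (-3.04 ± 0.15) and Adamts4 (-1.71 ± 0.20). The gelatinase Mmp2 stood at 8.60, 8.55 and 8.93 in BP3+ cells, against 10.08, 10.01 and 9.86 in BP3- cells (-1.29 ± 0.25, adjusted p 0.00133), and Timp1, an inhibitor of such enzymes, gave -0.84 ± 0.16. Mmp9 stood at 6.72, 7.14 and 7.13 in BP3+ cells, against 6.33, 6.40 and 6.56 in BP3- cells and did not pass (0.57 ± 0.22, adjusted p 0.108).

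The FGF, PDGF, VEGF and angiopoietin families had 6 higher and 11 lower members among 26 ligands and receptors (median -0.25). Fgf10, a mesenchymal ligand of the FGFR2b receptor, stood at 1.86, 2.08 and 1.93 in BP3+ cells, against 6.01, 5.74 and 6.07 in BP3- cells (-3.98 ± 0.11, adjusted p 8.03e-13). Fgf7, a ligand of the same receptor, stood at 4.62, 4.48 and 3.39 in BP3+ cells, against 7.75, 7.79 and 7.89 in BP3- cells (-3.65 ± 0.25, adjusted p 1.87e-08). Pdgfd gave -3.89 ± 0.23, the lymphangiogenic factors Vegfd and Vegfc -3.66 ± 0.16 and -0.87 ± 0.15, and the angiopoietins Angpt2 and Angpt1 -2.72 ± 0.18 and -1.69 ± 0.16. Fgfr4 stood at 5.25, 5.53 and 5.79 in BP3+ cells, against 3.23, 3.29 and 2.82 in BP3- cells (2.41 ± 0.16, adjusted p 9.97e-09) and Fgfr2 gave 1.80 ± 0.21. The ligand Pdgfa gave 0.72 ± 0.17, and Pdgfra, a receptor of fibroblasts, gave -0.77 ± 0.14. Of 11 insulin-like growth factor genes 2 were higher and 3 lower (median -0.19). Igf2, a fetal growth factor, stood at 3.16, 3.52 and 3.23 in BP3+ cells, against 7.50, 7.95 and 8.08 in BP3- cells (-4.54 ± 0.17, adjusted p 1.03e-11). Igfbp2, one of its binding proteins, stood at 8.81, 8.05 and 7.76 in BP3+ cells, against 4.36, 4.20 and 3.60 in BP3- cells (4.15 ± 0.28, adjusted p 1.33e-08). Igf1 averaged 8.66 ± 0.08 in BP3+ cells and 8.79 ± 0.22 in BP3- cells (SD) and did not pass.

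Among BMP and TGF-beta genes 5 of 26 were higher and 9 lower (median -0.373). Grem1, a secreted BMP antagonist of reticular cells, stood at 9.60, 9.67 and 9.67 in BP3+ cells, against 7.40, 7.52 and 7.12 in BP3- cells (2.30 ± 0.12, adjusted p 8.88e-10). Bmp4, one of the ligands it binds, stood at 6.63, 6.39 and 6.05 in BP3+ cells, against 4.56, 3.75 and 3.91 in BP3- cells (2.28 ± 0.22, adjusted p 9.21e-07), and Id1, a target of BMP signals, gave 1.46 ± 0.18. Gdf10, a TGF-beta family ligand, stood at 3.04, 2.70 and 3.17 in BP3+ cells, against 8.06, 7.96 and 8.15 in BP3- cells (-5.09 ± 0.14, adjusted p 8.03e-13). The antagonist Chrdl1 (-1.28 ± 0.21), the activin subunit Inhba (-1.76 ± 0.15) and Tgfb2 (-1.56 ± 0.15) were lower, and Tgfb1 (-0.36 ± 0.16) did not pass. Wnt genes held 4 higher and 8 lower members of 28 (median -0.148). The Wnt-binding protein Sfrp4 stood at 4.09, 3.98 and 3.52 in BP3+ cells, against 8.54, 7.86 and 8.18 in BP3- cells (-4.33 ± 0.19, adjusted p 9.22e-11), and the antagonist Dkk2 (-2.82 ± 0.24) and the ligand Wnt2b (-2.11 ± 0.20) were lower. Axin2, a feedback target of canonical Wnt signals, gave 0.84 ± 0.11 in the other direction, and Sfrp2, at 9.49, 9.26 and 9.42 in BP3+ cells, against 8.91, 8.85 and 9.05 in BP3- cells, was slightly higher (0.45 ± 0.11, adjusted p 0.00654).

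The Notch pathway had 4 higher and 2 lower members among 16 (median 0.14). The ligands Dll4 (1.68 ± 0.18) and Dll1 (1.05 ± 0.20) and the effectors Hey2 (2.11 ± 0.20) and Hey1 rose, Hey1 at 7.56, 7.23 and 7.49 in BP3+ cells, against 6.03, 5.93 and 5.89 in BP3- cells (1.48 ± 0.12, adjusted p 1.93e-07). The glycosyltransferase Lfng, which modifies Notch receptors (-2.01 ± 0.33), and the effector Heyl (-0.65 ± 0.16) fell. Receptors did not pass, with Notch3 at 7.97, 7.82 and 8.14 in BP3+ cells, against 7.67, 7.86 and 7.05 in BP3- cells (0.45 ± 0.19). Pericyte and smooth muscle genes moved beside them: the mean over 19 genes was 6.27 to 6.32 on BP3+ arrays, against 5.89 to 6.07 on BP3- arrays, with 7 genes higher and 4 lower. Their part in the Notch values was not tested. The semaphorin, slit, netrin and ephrin families of guidance cues had 5 higher and 10 lower members among 32 (median -0.013). The slit receptors Robo1, at 8.72, 8.82 and 8.69 in BP3+ cells, against 6.00, 5.97 and 5.53 in BP3- cells (2.91 ± 0.19, adjusted p 1.06e-08), and Robo2 (2.75 ± 0.23) were higher. Their ligands Slit3, at 6.44, 6.27 and 6.25 in BP3+ cells, against 10.31, 10.19 and 10.11 in BP3- cells (-3.88 ± 0.14, adjusted p 9.09e-12), and Slit2 (-1.45 ± 0.27) were lower. Sema3c (-4.44 ± 0.20), Sema3d (-2.59 ± 0.26), netrin, Ntn1 (-2.64 ± 0.14), and the ephrin receptor Epha3 (-3.26 ± 0.20) were lower as well.

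Of 49 transcription factors of mesenchyme and position 6 were higher and 11 lower (median -0.073). Spib, an ETS factor known from B cells and plasmacytoid cells, stood at 8.76, 8.59 and 8.88 in BP3+ cells, against 6.65, 7.05 and 5.75 in BP3- cells (2.26 ± 0.23, adjusted p 1.84e-06), on arrays where the B cell genes Cd79a and Pax5 averaged 2.35 and 2.53 in BP3+ cells and 2.33 and 2.55 in BP3- cells. Whether such cells had a part in the value of Spib was not tested. Meox1 (1.43 ± 0.18), Foxf1 (1.32 ± 0.20), Sox4 (0.91 ± 0.17) and Foxp2 (0.86 ± 0.17), factors of mesoderm and neural development, were higher. The odd-skipped factor Osr1 stood at 7.91, 7.52 and 7.66 in BP3+ cells, against 10.14, 10.02 and 9.94 in BP3- cells (-2.34 ± 0.19, adjusted p 1.27e-07), and Osr2 (-1.60 ± 0.17), the bHLH factors Twist2 (-2.22 ± 0.22) and Twist1 (-0.84 ± 0.17), Tbx18 (-1.53 ± 0.16) and Lhx8 (-1.16 ± 0.14) were lower. Nkx2-3, which marks stroma of spleen and gut, averaged 2.17 ± 0.06 in BP3+ cells and 2.22 ± 0.06 in BP3- cells (SD), and Tlx1, a spleen factor, 2.24 ± 0.13 in BP3+ cells and 2.20 ± 0.16 in BP3- cells; neither passed.

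Imprinted genes, which are expressed from the allele of 1 parent and several of which promote fetal growth, had 11 lower members and 1 higher member among 15 (median -1.007). The lower count was 8 without BP3+ replicate 1, BP3- replicate 2 or BP3- replicate 3, and 10 without BP3+ replicate 2 or 3. Zim1 stood at 2.18, 2.38 and 2.32 in BP3+ cells, against 7.98, 7.61 and 7.72 in BP3- cells (-5.48 ± 0.17, adjusted p 1.99e-12) and its neighbour Peg3 at 6.86, 6.70 and 7.10 in BP3+ cells, against 9.14, 9.12 and 9.11 in BP3- cells (-2.24 ± 0.14, adjusted p 4.33e-09). The zinc finger gene Plagl1 (-2.75 ± 0.19), Peg10 (-2.42 ± 0.22), the long non-coding RNA Meg3 (-1.15 ± 0.13) and Ndn (-1.16 ± 0.19) fell with Igf2. On all of these genes the BP3+ arrays lay below the BP3- arrays. Nnat, the proteolipid neuronatin, stood at 8.85, 9.15 and 8.89 in BP3+ cells, against 5.24, 5.89 and 4.55 in BP3- cells and was the 1 higher gene (3.74 ± 0.27, adjusted p 2.92e-08).

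Of 12 genes of class I antigen presentation 6 were higher and 1 lower (median 0.395), 3 were higher without BP3+ replicate 1 or without BP3- replicate 3, and 0 were lower without any single array. The immunoproteasome subunit Psmb9 stood at 9.11, 8.98 and 8.62 in BP3+ cells, against 8.48, 8.22 and 7.90 in BP3- cells (0.70 ± 0.15, adjusted p 0.0033) and the peptide transporter Tap2 gave 0.57 ± 0.13. H2-Q6, whose probes may also read its close relatives, gave 0.89 ± 0.17, and B2m, the class I light chain, stood at 10.11 ± 0.08 in BP3+ cells and 10.32 ± 0.02 in BP3- cells (SD) and did not pass. Of 8 class II genes 3 were higher (median 0.302). The chain H2-Ab1 stood at 7.53, 7.58 and 7.59 in BP3+ cells, against 5.64, 5.17 and 5.51 in BP3- cells (2.13 ± 0.29, adjusted p 4.98e-05) and the invariant chain Cd74 at 5.70, 5.71 and 5.41 in BP3+ cells, against 4.22, 3.55 and 3.33 in BP3- cells (1.91 ± 0.30, adjusted p 0.000178). H2-Aa, the partner of H2-Ab1, stood at 4.73, 4.82 and 4.08 in BP3+ cells, against 4.29, 3.81 and 4.07 in BP3- cells and did not pass (0.49 ± 0.35, adjusted p 0.475), and the class II regulator Ciita averaged 2.59 ± 0.09 in BP3+ cells and 2.61 ± 0.11 in BP3- cells. Of 13 myeloid markers on the same arrays 1 was higher, Cd14 with means of 6.99 in BP3+ cells and 5.09 in BP3- cells (1.90 ± 0.25), and 2 were lower, while Itgax of dendritic cells averaged 2.33 in BP3+ cells and 2.25 in BP3- cells and did not pass. Their part in the class II values was not tested.

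Of 26 interferon-induced genes 13 were lower and 2 higher (median -0.542), with 1 higher without BP3+ replicate 1, BP3+ replicate 2, BP3- replicate 2 or BP3- replicate 3. The lower count was 10 to 14 when 1 array was left out. Rtp4 stood at 4.94, 4.66 and 4.39 in BP3+ cells, against 6.74, 6.24 and 6.47 in BP3- cells (-1.82 ± 0.16, adjusted p 4.1e-07) and Ifit1, which binds foreign RNA, at 3.79, 3.78 and 3.62 in BP3+ cells, against 5.12, 4.90 and 5.45 in BP3- cells (-1.43 ± 0.14, adjusted p 1.75e-06). The interferon regulatory factors Irf7 (-0.96 ± 0.17) and Irf9 (-0.52 ± 0.12) were lower, and Usp18, the negative regulator of the interferon receptor, was higher (0.96 ± 0.17). Complement genes held 2 higher and 3 lower members of 16 (median -0.192), with 1 lower without BP3+ replicate 2, BP3+ replicate 3, BP3- replicate 1 or BP3- replicate 2. Factor B, Cfb, of the alternative pathway, stood at 9.47, 9.24 and 9.33 in BP3+ cells, against 8.07, 7.90 and 7.92 in BP3- cells (1.38 ± 0.14, adjusted p 1.56e-06), and C2, its counterpart in the classical pathway, at 8.03, 7.98 and 8.17 in BP3+ cells, against 9.05, 8.96 and 8.99 in BP3- cells (-0.94 ± 0.14, adjusted p 9.05e-05). Of 20 inflammatory chemokines 0 were higher and 3 lower (median -0.047). Cxcl5, which attracts neutrophils, stood at 2.86, 2.85 and 3.66 in BP3+ cells, against 5.71, 6.77 and 6.37 in BP3- cells (-3.16 ± 0.23, adjusted p 4.38e-08), and Ccl2, Ccl7, Cxcl1 and Cxcl10 did not pass.

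Immediate early genes, which respond within minutes to growth factors and to tissue digestion, had 11 lower and 0 higher members among 21 (median -0.473). The count was 7 without BP3+ replicate 1, 6 without BP3+ replicate 2, 6 without BP3- replicate 1 and 7 without BP3- replicate 2. Egr2 stood at 7.98, 8.11 and 8.08 in BP3+ cells, against 9.73, 9.95 and 9.78 in BP3- cells (-1.76 ± 0.18, adjusted p 1.68e-06), Klf4 at 6.49, 6.57 and 6.47 in BP3+ cells, against 8.11, 7.91 and 7.91 in BP3- cells (-1.47 ± 0.13, adjusted p 4.71e-07) and Fos at 10.15, 10.23 and 10.51 in BP3+ cells, against 10.76, 10.88 and 10.92 in BP3- cells (-0.56 ± 0.12, adjusted p 0.0027). Jun, Egr1 and Dusp1 did not pass, with -0.22 ± 0.11, -0.23 ± 0.10 and -0.23 ± 0.12. Il6 and Cxcl5 were lower on the same arrays, and the part of this group in their values was not tested.

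**Figure D3:**
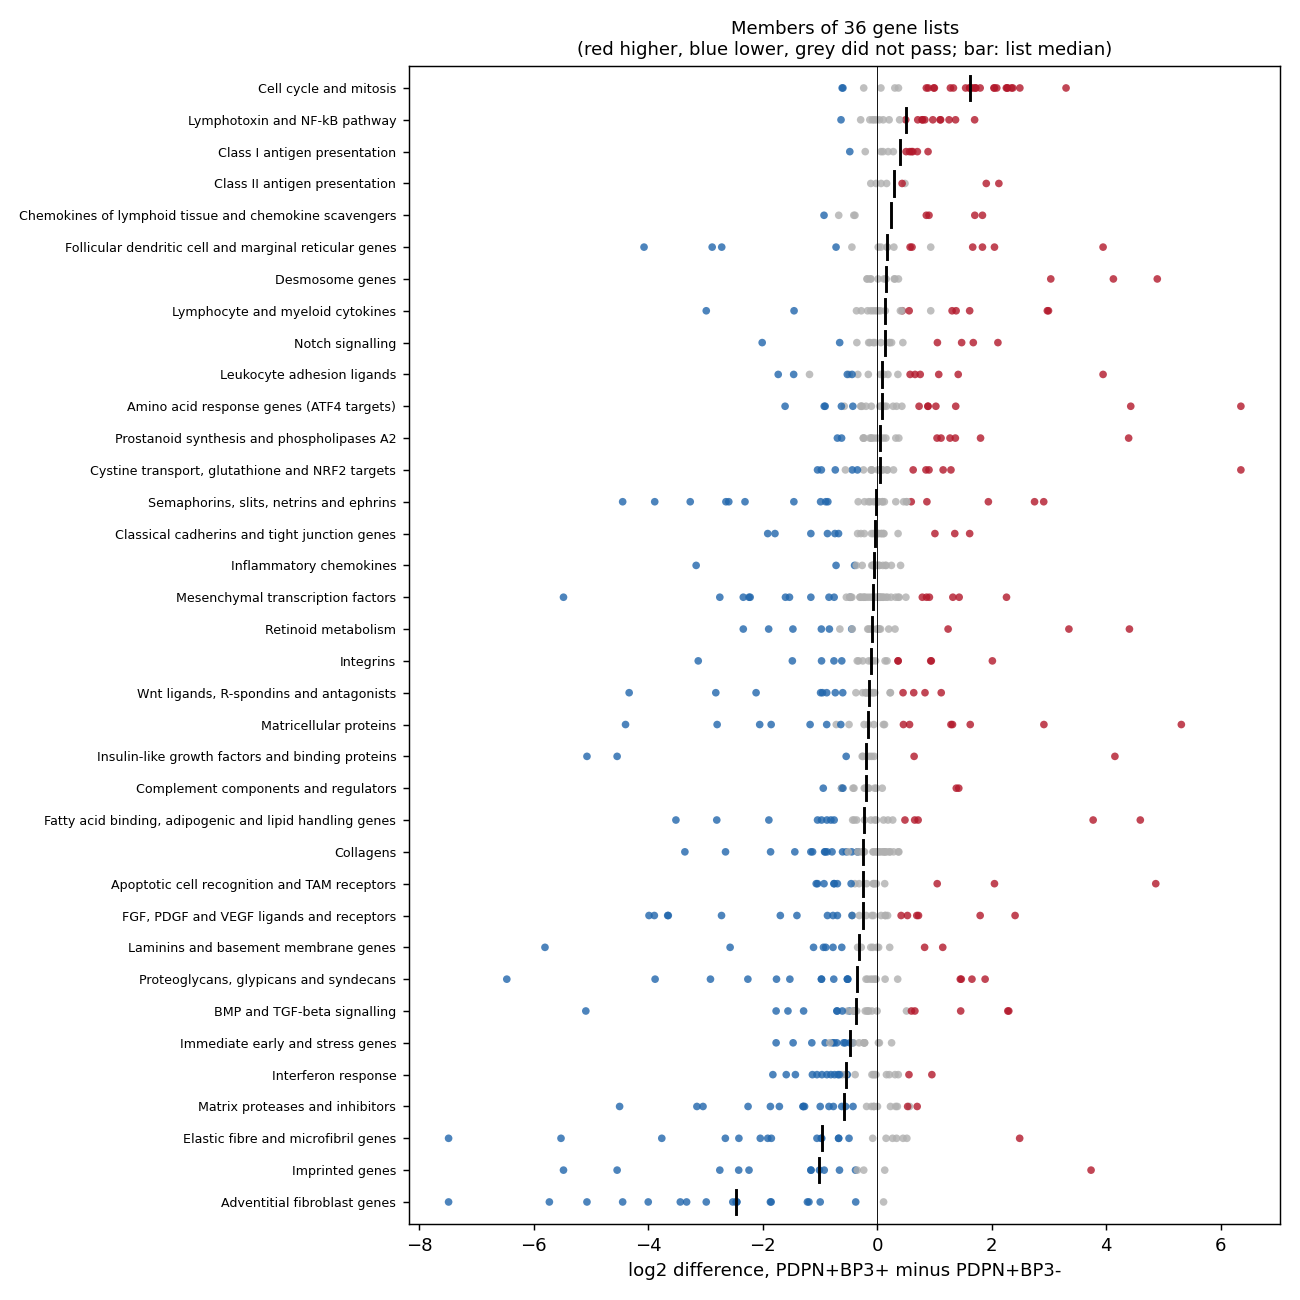
Log2 difference, PDPN+BP3+ minus PDPN+BP3- (horizontal axis), of every measured member of 36 gene lists (rows, ordered by median), in red where higher, blue where lower and grey where the gene did not pass, with a black bar at the list median. Cell cycle genes have the highest median (1.63) and adventitial fibroblast genes the lowest (-2.463).

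Markers of other cell types were read on the same 6 arrays for what else the sort could hold. None of 7 B cell, 2 red blood cell and 11 epithelium markers passed. Of 10 T cell markers 1 passed, Thy1, which fibroblasts also carry, at 4.53, 4.76 and 4.34 in BP3+ cells, against 8.84, 7.91 and 8.38 in BP3- cells (-3.83 ± 0.18, adjusted p 2.11e-10), while Cd3e averaged 3.20 ± 0.40 in BP3+ cells and 3.36 ± 0.15 in BP3- cells (SD) and did not pass. The T cell list mean was 2.82 to 3.01 on BP3+ arrays and 3.24 to 3.43 on BP3- arrays. Among 13 myeloid markers, the calprotectin genes S100a8, at 2.27, 2.17 and 1.94 in BP3+ cells, against 5.33, 6.71 and 6.92 in BP3- cells (-4.19 ± 0.60, adjusted p 7.81e-05), and S100a9, at 2.45, 2.55 and 2.44 in BP3+ cells, against 5.20, 6.36 and 6.23 in BP3- cells (-3.45 ± 0.35), were lower, and the lipopolysaccharide coreceptor Cd14, at 7.20, 6.97 and 6.79 in BP3+ cells, against 5.18, 5.17 and 4.91 in BP3- cells, was higher (1.90 ± 0.25). Itgam and Ptprc, which define myeloid cells and leukocytes, averaged 2.18 and 3.04 in BP3+ cells and 2.18 and 3.02 in BP3- cells. The myeloid list mean was 3.12 to 3.23 on BP3+ arrays and 3.54 to 3.79 on BP3- arrays.

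Of 14 blood endothelium markers 8 were lower and 2 higher. Pecam1 stood at 4.33, 4.05 and 4.01 in BP3+ cells, against 6.00, 4.86 and 5.22 in BP3- cells (-1.23 ± 0.27, adjusted p 0.00385) and the vascular cadherin Cdh5 at 3.88, 3.45 and 3.39 in BP3+ cells, against 5.32, 5.22 and 5.53 in BP3- cells (-1.78 ± 0.19, adjusted p 2.54e-06), both lower. Plvap, a protein of endothelial fenestrae, stood at 7.53, 7.33 and 7.11 in BP3+ cells, against 5.75, 5.38 and 5.59 in BP3- cells and was higher (1.75 ± 0.16, adjusted p 4.38e-07), as was the factor Sox18 (0.93 ± 0.18). Lymphatic endothelium markers, which include Madcam1 in the list used, averaged 3.22 to 3.29 on BP3+ arrays and 3.13 to 3.20 on BP3- arrays. Madcam1 was the 1 of 9 that was higher, and 3 were lower, none lower without BP3+ replicate 2 and 1 without BP3- replicate 3. Pericyte and smooth muscle genes went both ways: of 19, 7 were higher and 4 lower, with differences between -0.97 and 1.82. Among the higher were the contractile genes Acta2 (0.85 ± 0.12), Tagln (1.06 ± 0.14) and Myh11 (1.40 ± 0.16). The filament gene Des (1.08 ± 0.23) and the regulator Rgs5 (1.38 ± 0.12) were higher too. Without BP3- replicate 1, 2 genes in place of 4 were lower. The pericyte markers Cspg4 (-0.09 ± 0.17) and Higd1b (-0.03 ± 0.12) did not pass, the second at a mean of 2.46 in BP3+ cells and 2.49 in BP3- cells. Each of 3 other lists held 1 lower gene and 0 higher genes: S100b (-3.08 ± 0.18) among 5 glia markers, the fatty acid carrier Fabp4 (-1.89 ± 0.25) among 7 adipocyte markers and Gpm6a (-0.90 ± 0.12) among 7 mesothelium markers. No mesothelium marker had a mean above the table median in either population. The glial factor Sox10 (-0.10 ± 0.17) and the adipocyte gene Plin1 (-0.22 ± 0.13) did not pass. For lists with at most 3 genes that passed, the median differences were -0.102 for T cell, 0.023 for myeloid, 0.023 for adipocyte, -0.103 for glia and 0.007 for mesothelium markers. The median was -0.387 for lymphatic endothelium markers, against their higher mean, and 0.353 for pericyte and smooth muscle genes. The part of such cells in the other results was not tested.

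**Figure D4:**
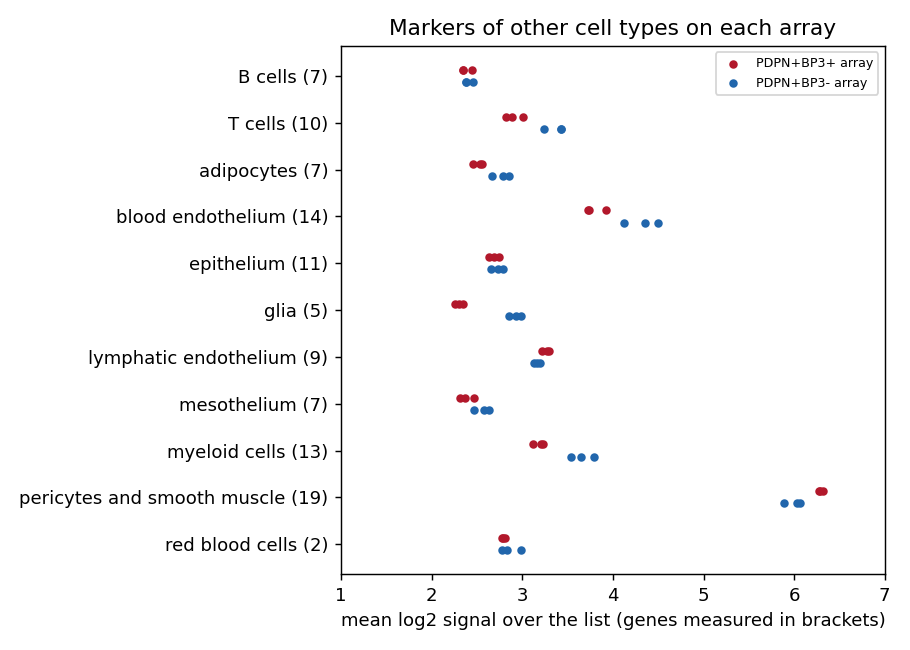
Mean log2 signal over each list of markers of other cell types (horizontal axis; number of genes measured in brackets) on the 3 PDPN+BP3+ arrays (red) and the 3 PDPN+BP3- arrays (blue). Means are higher on PDPN+BP3+ arrays for the pericyte (6.27 to 6.32, against 5.89 to 6.07) and lymphatic lists (3.22 to 3.29, against 3.13 to 3.20), and lower for the blood endothelium list and for the myeloid, T cell, adipocyte and glia lists, the last 4 with 1 or 2 lower genes each. In the lymphatic list Madcam1 is the 1 higher gene, 3 genes are lower and the median difference is -0.387.

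Levels in the other 3 populations place these changes in the series, as a description without test. All 20 of the largest rises had the 3 BP3+ arrays above all 12 other arrays of the series. The same held for 960 of the 1589 higher genes (60.4%), against 7.06% of all genes. Of the 20 largest falls, 11 had the BP3+ arrays below all 12 others and 8 had the BP3- arrays above all 12 others. Among the 1449 lower genes these positions held for 370 (25.5%, against 2.73% of all genes) and 372 (25.7%, against 2.59%). All these genes were selected on the difference between BP3+ and BP3- arrays, and 3 of the 12 other arrays belong to that comparison. Selection alone therefore raises their shares above those of all genes, and the excess is no support for a trait of either population.

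Slc7a11 averaged 8.94 in BP3+ cells and 2.59 in BP3- cells, and 2.09 ± 0.27 in lymph node PDPN-, 2.94 ± 0.27 in thymus PDPN+BP3- and 2.35 ± 0.35 in thymus PDPN- cells (SD), and neighbours in the order of the 4 lower populations lay within their spread. Madcam1 averaged 7.39 in BP3+ cells, 3.45 in BP3- cells and 3.62 ± 0.68 in lymph node PDPN- cells, the last pair within their spread, and 2.41 ± 0.07 and 2.39 ± 0.09 in thymus PDPN+BP3- and PDPN- cells. Dsc3 followed a graded order, with 10.15 in BP3+ and 6.02 in BP3- cells and between 2.39 and 2.65 in lymph node PDPN-, thymus PDPN+BP3- and thymus PDPN- cells. Cxcl13 was high in all podoplanin-positive cells, with 10.72 in BP3+ and 8.88 in BP3- cells and 8.80 ± 0.40 in thymus PDPN+BP3- cells, the last pair within their spread, against 4.20 ± 0.41 and 4.36 ± 0.33 in PDPN- cells of node and thymus. Mfap5 was lowest in BP3+ cells (3.29), followed by thymus PDPN- (5.56 ± 0.33), lymph node PDPN- (8.55 ± 0.27), lymph node PDPN+BP3- (10.77) and thymus PDPN+BP3- cells (11.30 ± 0.20). Cd34, in contrast, was high only in the PDPN+BP3- cells of both organs among these populations, at 9.50 in node and 10.35 ± 0.09 in thymus. It averaged 3.77 in BP3+ cells, 4.44 ± 0.25 in lymph node PDPN- and 3.97 ± 0.19 in thymus PDPN- cells, and the BP3+ and thymus PDPN- arrays overlapped. Cpe averaged 3.06 in BP3+ cells, 8.92 in BP3- cells, and 9.18 ± 0.14, 8.92 ± 0.09 and 9.92 ± 0.13 in lymph node PDPN-, thymus PDPN+BP3- and thymus PDPN- cells. Lama2, Igf2 and Sparcl1 were likewise lowest in BP3+ cells.

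**Figure D5:**
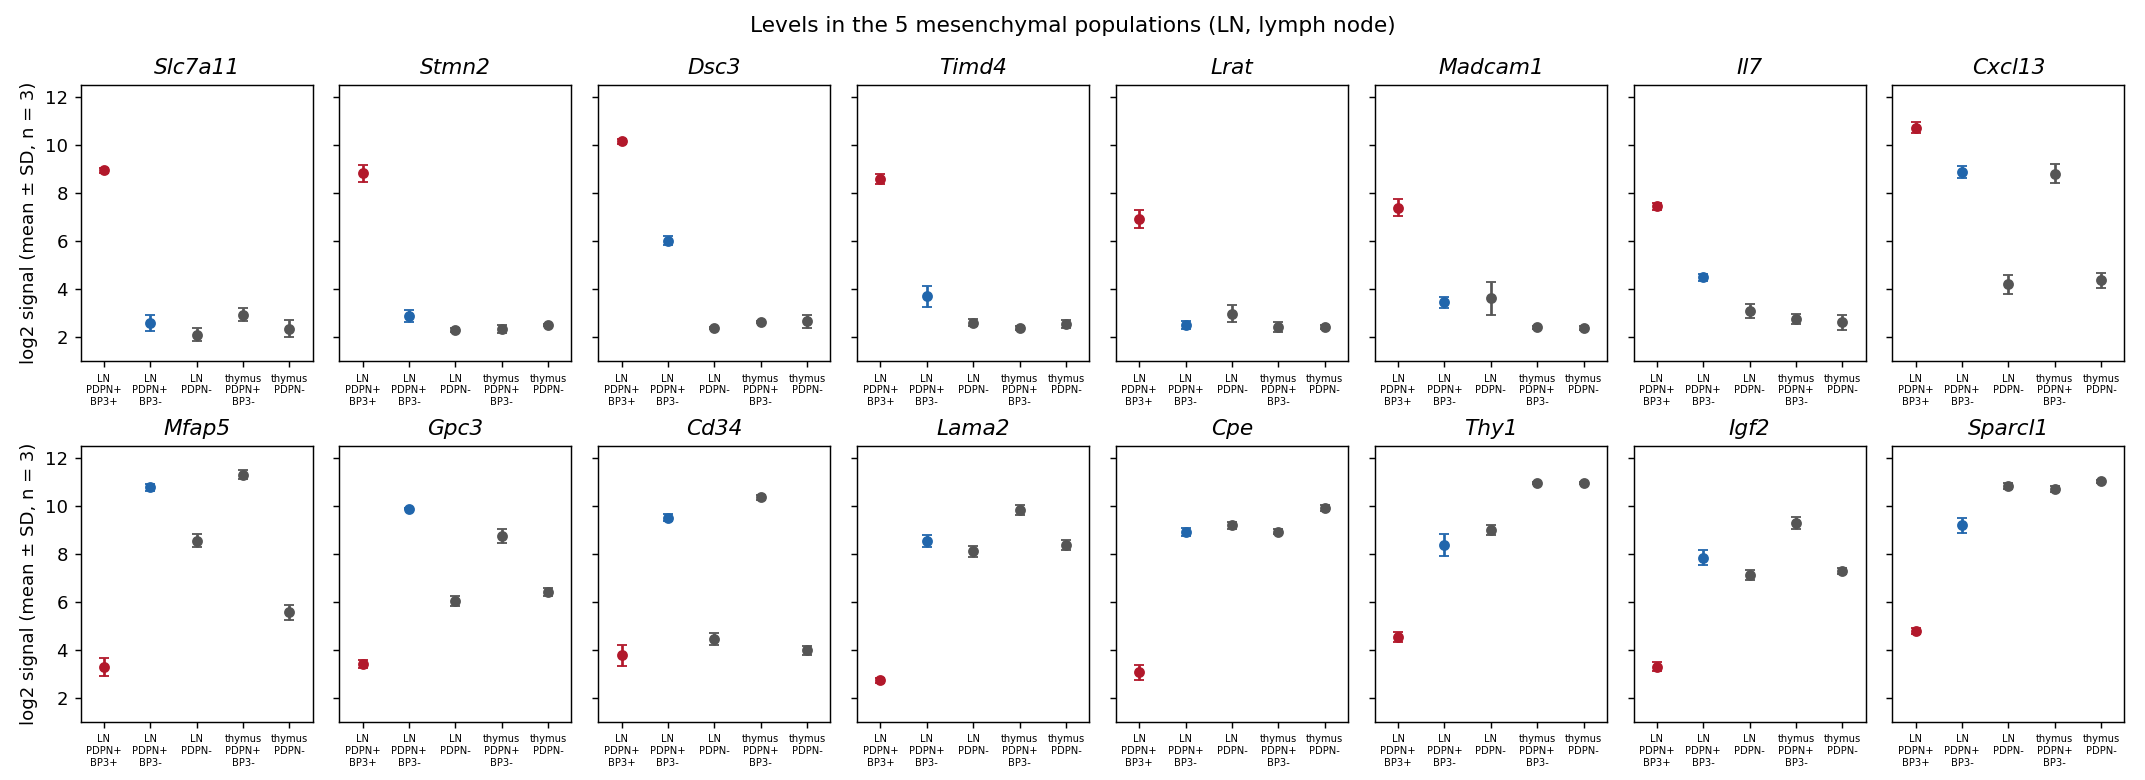
Mean log2 signal ± SD (vertical axis, n = 3 arrays) of 16 genes in PDPN+BP3+ (red) and PDPN+BP3- (blue) lymph node cells and, in grey, lymph node PDPN-, thymus PDPN+BP3- and thymus PDPN- cells. The 8 genes of the upper row have their highest mean in PDPN+BP3+ cells, and the 8 of the lower row have their lowest mean there. For Cd34 the PDPN+BP3+ arrays overlap those of thymus PDPN- cells.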

How the data were processed

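RNA of 5 sorted mesenchymal populations (2 podoplanin-positive lymph node populations, lymph node PDPN- cells and 2 thymus populations; 3 arrays each) was measured on Affymetrix Mouse Gene 1.1 ST arrays. The authors deposited 1 table of log2 RMA values made in Affymetrix Expression Console, per the submitters' processing notes; no version of either was found in the labels. The base of the logarithm was read from the values, which lie between 1.07 and 12.07. No background or detection measure was used, and the number of arrays limits the precision. All columns of the table were mapped to samples through their labels.

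Of 24758 transcript clusters, 20844 have 1 gene symbol in the platform annotation, 1735 several and 2179 none. For the 1230 genes with over 1 such cluster the cluster with the highest mean over 15 arrays was kept, which left out 2126 clusters and gave 18718 genes. A group-means model over all 15 arrays was fitted with limma 3.58.1 in R 4.3.3 (lmFit and eBayes; 10 residual and 5.5 prior degrees of freedom), so the spread is shared over the 5 populations, and p-values were adjusted over the 18718 genes at a threshold of 0.05. The deposited values were tested without a further filter or scaling, and the fit was tested on simulated data. Tables and figures were made with Python 3.11.15, pandas 2.3.3 and matplotlib 3.10.9.

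The members compared and the 47 gene lists (929 symbols, 838 measured; 36 lists of pathways and families and 11 of other cell types) were chosen with earlier results of these data known. Genes named are the sort antigens, the markers of the comparison, the 20 largest rises and 20 largest falls without overlap between arrays, up to 6 genes per list and direction with the smallest adjusted p, and further list members with their values. Calls of predicted genes, receptors of smell and pheromones, segments of antigen receptors and small RNAs, 68 in all, were counted without naming them. The alternatives were other scalings, filters, gene rows, fits, a fold threshold, a replicate block and leaving out each array.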

Additional observations from a re-analysis of the deposited data

How the results depend on the processing

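The counts of 1589 higher and 1449 lower genes depended most on the size asked for. With a log2 difference of at least 1 in addition to the adjusted p they were 605 and 557. Cyclic loess gave 1679 and 1825, so the share of calls that were higher was 47.9%, against 52.3% with the deposited values. Median centring gave 1602 and 1718, a filter on low values 1493 and 1317 among 10080 genes, the 6 arrays alone 1986 and 1754, a trended and robust prior 1554 and 1434, and all 24758 transcript clusters 1994 and 1688. Leaving out 1 array at a time gave 1216 to 1467 higher and 1107 to 1265 lower genes, and 2295 to 2542 of the 3038 calls were kept. None of the 324 genes named by rule changed its sign in these runs (the filter on low values kept 298 of them), but 25 to 30 of these genes did not pass without 1 array, 116 did not pass with the log2 difference of at least 1, and 0 to 9 did not pass in the other runs. Taking the row with the highest mean over the 6 arrays turned the sign of 1 of the 3038 calls.

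The replicate numbers of the labels recur in both populations, and nothing in the labels says that a number marks a shared pool. The deviations of same-numbered arrays correlated at 0.154, 0.0743 and 0.0639, against -0.102 to 0.0268 for other pairs, so each array correlated best with its own number. With the replicate number as a block the 6 arrays gave 2069 higher and 1825 lower genes, and the block nested in tissue over 15 arrays gave 1569 and 1410.

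With 3 arrays per population a gene that did not pass is not shown to be equal in both. Signals near background were not told apart from absent ones.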
